A study of Mus musculus with 7 samples.

Results

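The 39 genes described here encode nucleolar proteins that build ribosomes, and their messenger RNA was counted in 7 single mouse embryos at the morula stage, 3 days post coitum. They were taken by symbol from a table of 26586 gene symbols, and all 39 were found. Each embryo came from a cross of L13a +/- mice on the C57BL/6 background, was collected untreated from the oviduct or uterus, and is 1 library of polyadenylated RNA. L13a is the ribosomal protein gene Rpl13a. The embryos form 1 group with no wild-type control, and the labels give them no genotype, sex or litter, so no groups were compared. The labels do not say whether they had separate mothers, so a p-value here measures only the spread between these 7 samples, part of which may be technical.

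Ribosomes are assembled in the nucleolus. RNA polymerase I transcribes the ribosomal RNA genes, small nucleolar RNA particles modify the precursor, and processing factors cut and fold it into the small and the large subunit. Mouse embryos inherit an inert nucleolar body from the oocyte and form active nucleoli during cleavage, so these transcripts can come from maternal stores as well as from the embryo's own genome. The genes were ordered by role: 4 of RNA polymerase I transcription, 3 major nucleolar proteins, 7 of the modification particles, 13 of the small and 12 of the large subunit.

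The start sites of 33 of the 39 genes were in the RefSeq promoter table of GRCm38.p6, with 41 promoters. Among the 250 bases before the start, the hexamer CACGTG, the core bound by MYC and related factors, occurred in 3 of the 41 promoters (7.32%, those of Nop2, Rrn3 and Utp18), against 6.02% of 32851 promoters of all genes. The ETS family core CCGGAAG, read on both strands, occurred in 9 of 41 (22.0%), against 6.91% of all promoters. The genes with it were Ddx10, Gar1, Heatr1, Las1l, Nhp2, Nip7, Nolc1, Nop2 and Utp18. The sequence TCGCGAGA, also read on both strands, occurred in 1 of 41, that of Nop58 (2.44% against 0.858%). Some genes have several promoters. By gene, CACGTG was in 3, CCGGAAG in 9 and TCGCGAGA in 1 of 33, against 6.86, 7.83 and 0.977% of 27025 genes. Median GC content was 58.0% in these promoters and 52.4% in all of them, and the shares were not tested or adjusted for it. A match is a description of the letters and shows no binding. The promoters of Nop2 and Rrn3 are shown because they hold CACGTG, and those of Gar1 and Nolc1 as examples with CCGGAAG on either strand. Capitals mark either motif (CTTCCGG is CCGGAAG on the other strand), and each sequence ends at the base before the start site.
Nop2, chr6:125131633-125131882, plus strand: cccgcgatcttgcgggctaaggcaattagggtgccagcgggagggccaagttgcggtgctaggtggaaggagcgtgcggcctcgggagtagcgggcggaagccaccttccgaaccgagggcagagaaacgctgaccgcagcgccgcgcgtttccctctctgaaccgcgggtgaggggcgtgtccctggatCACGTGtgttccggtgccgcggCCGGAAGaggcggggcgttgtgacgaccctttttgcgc
Rrn3, chr16:13780449-13780698, plus strand: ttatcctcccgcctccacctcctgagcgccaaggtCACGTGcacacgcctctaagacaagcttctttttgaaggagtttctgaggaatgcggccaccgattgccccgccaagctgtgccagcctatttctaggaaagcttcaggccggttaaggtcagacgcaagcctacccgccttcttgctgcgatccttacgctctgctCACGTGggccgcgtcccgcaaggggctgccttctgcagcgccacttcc
Gar1, chr3:129831397-129831646, minus strand: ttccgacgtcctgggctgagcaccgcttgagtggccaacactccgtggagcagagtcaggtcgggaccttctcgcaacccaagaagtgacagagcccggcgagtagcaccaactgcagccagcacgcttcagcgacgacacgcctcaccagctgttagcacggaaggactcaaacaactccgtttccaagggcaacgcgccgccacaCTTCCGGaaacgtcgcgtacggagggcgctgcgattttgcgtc
Nolc1, chr19:46075597-46075846, plus strand: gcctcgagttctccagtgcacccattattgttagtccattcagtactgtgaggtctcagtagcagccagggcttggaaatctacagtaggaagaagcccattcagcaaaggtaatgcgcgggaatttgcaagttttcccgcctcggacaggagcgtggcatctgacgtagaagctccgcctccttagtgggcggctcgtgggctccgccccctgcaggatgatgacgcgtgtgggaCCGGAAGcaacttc

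Libraries differed 237-fold in total count, from 139619 to 33123742, and several stood apart in their markers. Of 12 embryonic genes of the morula and blastocyst, such as Pou5f1 and Cdx2, 1, 8, 3, 12, 5, 0 and 7 were counted in replicates 1 to 7. Their summed level, in counts per 1000000 counts of the library (CPM), was 6.99, 784, 20.7, 5889, 735, 0 and 445 CPM. Of 12 oocyte transcripts, such as Zp3 and Bmp15, 11, 12, 9, 8, 4, 5 and 12 were counted, with 7932, 8001, 10103, 33.6, 606, 3717 and 15215 CPM in sum. Replicate 4 thus had the most embryonic and the least oocyte message, and replicate 6 none of the embryonic markers. Oviduct and uterine epithelium markers summed to 6289 CPM in replicate 6 and from 0 to 1811 CPM elsewhere, with 9 of 10 counted in replicate 2 and at most 6 in any other. Among those of replicate 2, Pax8 had 2 counts and Foxj1 had 1. In replicate 6, 4 of the 10 were counted: Lcn2, Ltf, Wfdc2 and Sprr2f. Stroma and muscle markers (8 in the list) summed to 4348 CPM in replicate 6 and from 0 to 565 CPM elsewhere. In replicate 6 only 2 of the 8 were counted, Dcn with 592 counts and Col1a1 with 15. The 565 CPM, in replicate 3, were Myh11 alone, with 410 counts. Cumulus markers were at 0 except 1 count of Tnfaip6 in replicate 5, and blood markers were at most 129 CPM, in replicate 6. The part of depth, of stage and of maternal cells in the levels below was not tested, and in a whole embryo fewer cells with a transcript and less RNA per cell cannot be told apart.

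The number of ribosome biogenesis transcripts counted ranged from all of them in 2 embryos to 5 in the shallowest library, where few genes of any kind were counted. All 39 genes had a count in replicates 2 and 4, 34 in replicates 5 and 7, 20 in replicate 1, 19 in replicate 3 and 5 in replicate 6. Over 11810 genes with a mean of 1 CPM or more, 41.7, 72.1, 29.0, 84.0, 27.7, 14.8 and 69.5% had a count in replicates 1 to 7. Replicate 5 is the embryo where the 2 kinds of gene differed most, with 87.2% of the 39 genes counted and 27.7% of all tested genes. The 39 genes are more abundant than most, with a median of their mean levels of 92.0 CPM against 20.6 CPM for all tested genes, and abundant genes are counted more readily. With every library thinned at random to 139619 counts, 13, 34, 16, 39, 24, 5 and 29 of the 39 genes had a count, and 33.2, 57.6, 23.8, 69.4, 19.5, 14.8 and 55.4% of the tested genes. All 39 were therefore still counted in replicate 4 at the lowest depth, and 61.5% in replicate 5. The level of 3 counts, which a gene without counts could still have, was 2.62 CPM in replicate 1, 0.182 in replicate 2, 4.13 in replicate 3, 0.0906 in replicate 4, 1.09 in replicate 5, 21.5 in replicate 6 and 0.175 in replicate 7 (for counting error only), so a 0 in replicate 6 does not show absence.

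**Figure D1:**
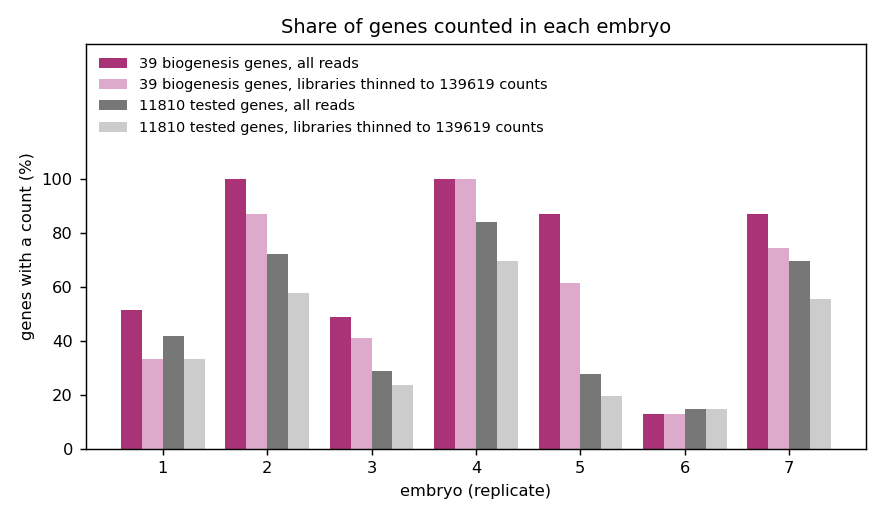
Share of genes with a count (vertical axis, percent) in each embryo (horizontal axis), for the 39 biogenesis genes and the 11810 tested genes, with all reads and after thinning to 139619 counts. All 39 genes were counted in replicates 2 and 4, and 5 in replicate 6; in replicate 5 the share of the 39 was 87.2% against 27.7% of tested genes.

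The share of all counts that fell on the 39 genes varied 9.78-fold between embryos. It was 0.114, 0.702, 1.03, 1.12, 0.697, 0.491 and 0.200% in replicates 1 to 7. The exact 95% interval (Clopper-Pearson) was widest in replicate 6, from 0.455 to 0.529%, and ran from 0.108 to 0.121% in replicate 1 and from 1.11 to 1.12% in replicate 4. The 7 embryos had a mean of 0.622 ± 0.383% (SD, n = 7). The intervals cover counting error only, since the libraries carry no molecular identifiers. Replicates 3 and 4 were highest and replicate 1 lowest. These shares were made up of different numbers of genes. In replicate 4 the lowest of the 39 genes stood at 45.6 CPM and the median at 163 CPM, and 28 reached 100 CPM. In replicate 3 the median was 0 CPM and 10 genes reached 100 CPM, with 56.1% of the biogenesis counts on Ncl, Wdr43 and Utp18. The 3 leading genes held 47.0% in replicate 4, 37.1% in replicate 2, 43.9% in replicate 7, 57.0% in replicate 5 and 62.0% in replicate 1. In replicate 6, 99.7% were on Ubtf, Wdr43 and Las1l. Medians were 0.874, 93.2, 11.6 and 21.1 CPM in replicates 1, 2, 5 and 7, against 0, 14.2, 0 and 12.1 CPM over all tested genes.

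The highest level of a gene was most often in replicate 4, for 17 of the 39 genes (43.6%, against 29.6% of the tested genes). Replicates 2, 3, 5, 6 and 7 held the highest level of 7, 6, 4, 2 and 3 genes. These are 17.9, 15.4, 10.3, 5.13 and 7.69% of the 39, against 18.6, 8.92, 7.10, 5.77 and 19.2% of the tested genes. None of the 39 was highest in replicate 1, which held the highest level of 10.9% of tested genes. No embryo held the highest level of most tested genes, so genes that peak in different embryos, as described below, are common here.

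**Figure D2:**
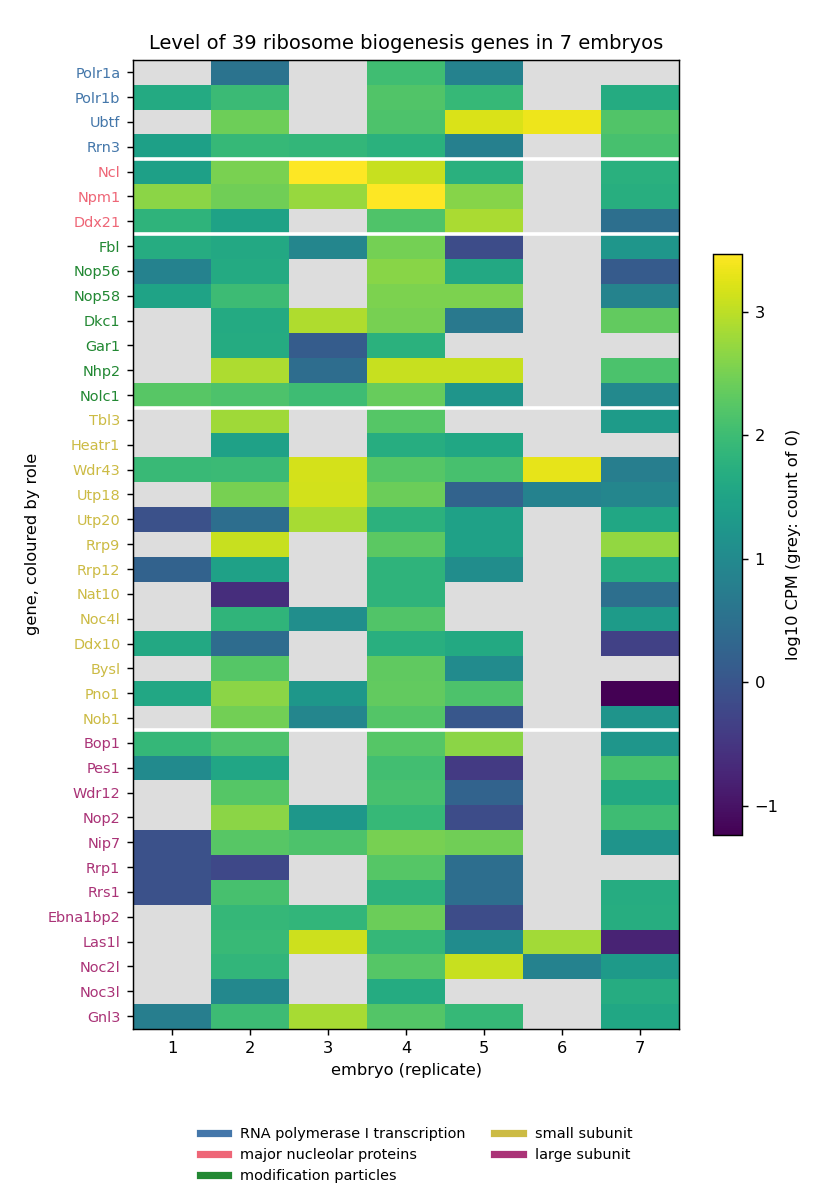
Level of each of the 39 genes (rows, grouped and coloured by role) in each embryo (columns), as log10 CPM, with counts of 0 in grey. Replicate 4 is filled throughout, from 45.6 to 2867 CPM, whereas replicate 6 has 5 filled cells and replicates 1 and 3 have gaps in every role except the major nucleolar proteins of replicate 1.

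The genes of RNA polymerase I transcription did not peak together. Ubtf (chromosome 11, 102304560 to 102319742, minus strand), which binds and opens the ribosomal RNA gene promoter, stood at 0, 271, 0, 143, 1595, 2278 and 158 CPM in replicates 1 to 7. Its highest values were in replicates 5 and 6, where it took 22.9 and 46.4% of the counts of the 39 genes. Polr1a, the largest subunit of the polymerase, was at 0, 3.59, 0, 106, 7.23, 0 and 0 CPM with 59, 3501 and 20 counts in the 3 embryos that had it. Replicate 4 was highest, 14.6-fold above replicate 5. Polr1b, the next largest subunit, was more widely counted, at 44.6, 94.3, 0, 159, 83.2, 0 and 46.1 CPM. Rrn3 (chromosome 16, 13780708 to 13814839), which recruits the polymerase to the promoter and whose own promoter is shown above, was at 28.0, 82.3, 75.8, 58.6, 6.51, 0 and 124 CPM. Of its 7 values 5 lay between 28.0 and 124 CPM, and its SD of 3.21 log2 units was the second smallest of the 39 genes. Rn45s, the precursor RNA that this machinery makes, was at 68008, 41631, 13294, 25946, 147164, 64941 and 19756 CPM. The libraries were primed on poly(A), so Rn45s reads need not follow the amount of precursor. The highest Rn45s level was in replicate 5, where Ubtf was high, Polr1a at 7.23 and Rrn3 at 6.51 CPM.

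Major nucleolar proteins took the largest share of biogenesis counts in replicates 1 and 4 (47.1 and 37.8%) and none in replicate 6. Ncl (nucleolin; chromosome 1, 86344719 to 86359400), an RNA-binding protein that acts in transcription and early processing, was at 28.0, 334, 2949, 1204, 55.7, 0 and 57.1 CPM. It was highest in replicate 3 and above 334 CPM in replicates 3 and 4 alone. Npm1 (nucleophosmin; chromosome 11, 33152287 to 33163206), a chaperone that forms the outer layer of the nucleolus, was at 444, 276, 549.8, 2867, 416, 0 and 52.4 CPM. Replicate 4 stood 5.21-fold above the next embryo, and 4 others lay within 276 to 549.8 CPM. Ddx21, a helicase that links RNA polymerase I and II transcription to processing, was at 65.6, 29.7, 0, 147, 742, 0 and 3.04 CPM. Its highest level was in replicate 5, where Ncl was at 55.7 CPM, so the 3 genes each had another highest embryo. Transcripts of 4 other genes, all named as predicted genes, match Npm1 at 95% identity or more over at least 300 bases, and reads from them could be counted under Npm1 or lost. None of the 4 is in the count table.

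Genes of the modification particles were highest as a group in replicate 4, at 2885 CPM in sum, and lowest where counted in replicate 1, at 261 CPM. The box C/D particle adds methyl groups to ribosomal RNA and is built from fibrillarin (Fbl), the methyltransferase, with Nop56 and Nop58. Nop58 was at 31.5, 98.3, 0, 355, 351, 0 and 7.48 CPM, with nearly equal highest values in replicates 4 and 5. Fbl and Nop56 were highest in replicate 4 alone, at 304 and 433 CPM, 6.45-fold and 9.72-fold above the next embryo. In replicate 5, Fbl had 2 counts (0.723 CPM) where Nop58 had 971. Levels of the partners of 1 particle thus moved apart between embryos 4 and 5. Between these embryos the Spearman rank correlation of levels was 0.346 over the biogenesis genes and 0.410 over all tested genes. Ranks over all tested genes thus also differed. Of those genes, 27.7% had a count in replicate 5, so their correlation also reflects which genes were counted. Whether partners of a particle differed more than other genes was not tested.

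The box H/ACA particle, which converts uridine to pseudouridine, showed the same kind of split. Dkc1 (dyskerin), its catalytic subunit on the X chromosome, was at 0, 43.5, 807, 325, 4.70, 0 and 218 CPM. Nhp2, its RNA-binding subunit, was at 0, 775, 2.76, 1174, 1188, 0 and 135 CPM. Replicate 3 held the highest level of Dkc1 and 2 counts of Nhp2, while replicate 5 held the highest level of Nhp2 and 13 counts of Dkc1. The Spearman rank correlation between replicates 3 and 5 was 0.0248 over the biogenesis genes and 0.221 over all tested genes. Ranks over all tested genes thus also differed between these embryos. Of those genes, 29.0% had a count in replicate 3 and 27.7% in replicate 5. Their correlation therefore also reflects which genes were counted, and is not a like measure to that of the biogenesis genes. Gar1, the third subunit followed here, was at 0, 46.5, 1.38, 60.1, 0, 0 and 0 CPM, well counted in replicates 2 and 4 and a single count in replicate 3. Nhp2 had the largest SD of the 39 genes, 5.83 log2 units. Nolc1 (Nopp140), a chaperone of both particles, was at 175, 141, 101, 234, 16.3, 0 and 9.70 CPM, within 101 to 234 CPM in replicates 1 to 4.

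**Figure D3:**
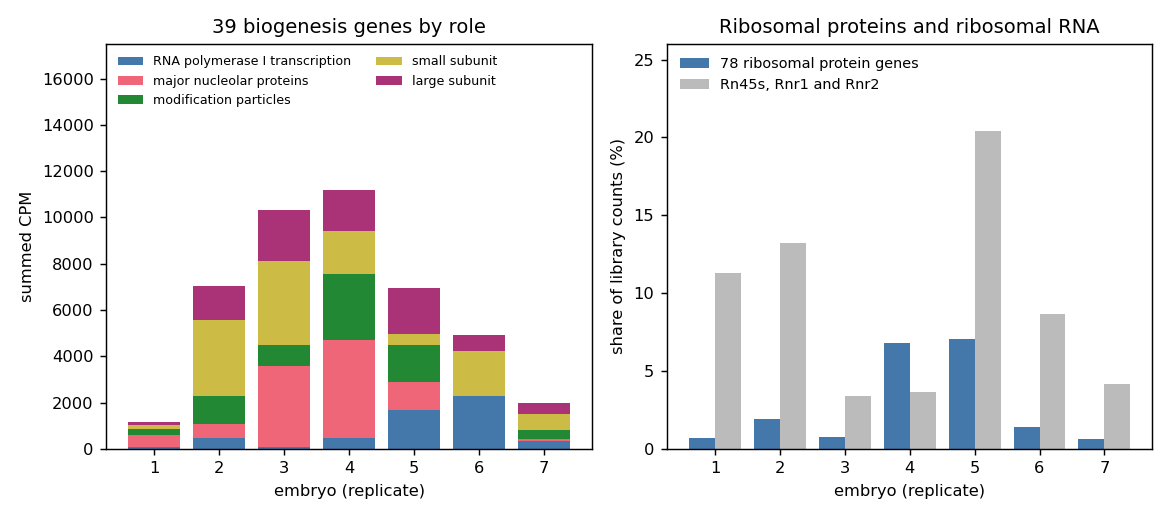
Left, summed CPM of the 39 genes by role in each embryo; right, share of library counts on 78 ribosomal protein genes and on Rn45s, Rnr1 and Rnr2. Biogenesis genes summed highest in replicate 4 (11169 CPM) and replicate 3 (10323 CPM), whereas ribosomal proteins were highest in replicates 5 (7.08%) and 4 (6.81%).

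The small subunit genes summed highest in replicates 3 (3603 CPM) and 2 (3302 CPM). Wdr43 (chromosome 17, 71615895 to 71659031), a subunit of the processome that assembles on the nascent precursor, was the 1 gene of the 39 counted in every embryo, at 89.2, 93.2, 1454, 169, 125, 1948 and 5.90 CPM. Over all tested genes, 3.69% were counted in every embryo. Wdr43 also had the smallest spread, 7.35 ± 2.57 log2 CPM (SD, n = 7), although replicates 3 and 6 stood well above the rest and replicate 7 below it. Utp18, of the same processome, was at 0, 324, 1392, 256, 1.81, 7.16 and 8.29 CPM, and its value in replicate 6 is 1 count. Rrp9, which binds the U3 small nucleolar RNA, was at 0, 1213, 0, 190.5, 28.9, 0 and 502 CPM, the most abundant of the 39 in counts in replicates 2 and 7.

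Pno1, which accompanies the last cut that makes mature 18S RNA, was at 38.5, 455, 17.9, 221, 145, 0 and 0.0584 CPM. Its partner Nob1, the nuclease that makes that cut, ranged from 0 to 298 CPM and was likewise highest in replicate 2. Both thus had their highest level in the same embryo, while in replicate 5 Pno1 had 402 counts and Nob1 3. Whether Pno1 and Nob1 differed more than other genes was not tested.

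Several small subunit genes were counted in 3 embryos each. Tbl3 (chromosome 17, 24697949 to 24707660), a processome subunit, was at 0, 618, 0, 173, 0, 0 and 22.0 CPM. Bysl, a late assembly factor first known from embryo adhesion, was at 0, 166, 0, 211, 10.9, 0 and 0 CPM. Heatr1, a large processome scaffold, was at 0, 29.2, 0, 49.5, 37.6, 0 and 0 CPM. All of these were counted in replicates 2 and 4, while Bysl and Heatr1 had no count in replicate 7, a library deeper than replicate 2. Nat10, which acetylates ribosomal RNA, was at 0, 0.243, 0, 67.8, 0, 0 and 3.10 CPM, so that its level rested on replicate 4, with 2247 counts against 4 in replicate 2. Utp20, Rrp12, Noc4l and Ddx10 completed the list, counted in 4 to 6 embryos and with highest levels from 55.0 CPM (Ddx10, replicate 4) to 719 CPM (Utp20, replicate 3). Utp20 in replicate 3 was 11.6-fold above the next embryo.

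Reads of Tbl3 are uncertain, since 37.3% of its exonic bases are shared with Noxo1 on the opposite strand and the labels do not say whether the counting used strand. Noxo1 was at 0, 78.0, 0, 2.05, 0, 0 and 167 CPM. In all, 13 of the 39 genes share exonic bases with a protein-coding gene on the opposite strand. Shares above 5% of the exons occurred in Tbl3, Noc2l (20.9%, with Samd11, which had no counts) and Bysl (9.37%, with Ccnd3).

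Large subunit genes summed highest in replicate 3 (2225 CPM) and replicate 5 (2029 CPM), with different genes leading. Las1l, an X-linked nuclease that cuts the internal spacer, was at 0, 84.7, 1270.5, 79.2, 11.2, 666 and 0.175 CPM, highest in replicates 3 and 6. Gnl3 (nucleostemin), a nucleolar GTPase abundant in stem cells, was at 6.12, 98.4, 718, 163, 83.2, 0 and 37.4 CPM. Noc2l, an early large subunit factor that also binds histones, was at 0, 71.7, 0, 171, 1189, 7.16 and 21.1 CPM. Noc2l was thus 6.94-fold higher in replicate 5 than in any other embryo, while Gnl3 was 4.40-fold higher in replicate 3. Nip7 was at 0.874, 178, 146, 315, 283, 0 and 15.9 CPM, within 146 to 315 CPM in replicates 2 to 5. Noc3l, which acts in a complex with Noc2l, was at 0, 9.12, 0, 45.6, 0, 0 and 47.0 CPM, with no count in replicate 5. In that embryo 27.7% of the tested genes had a count, so a gene at 0 there is common. Whether Noc2l and Noc3l differed more than other genes was not tested.

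The PeBoW complex, in which Pes1, Bop1 and Wdr12 act together in large subunit processing, was not counted in replicates 3 and 6. Bop1 ranged up to 453 CPM in replicate 5, where Pes1 had 1 count and Wdr12 5. Pes1 was highest in replicate 7 (126 CPM) and Wdr12 in replicate 2 (166 CPM). The 3 genes therefore had 3 different highest embryos, whereas in replicates 2 and 4 all of them lay between 35.4 and 172 CPM. No embryo held the highest level of more than 29.6% of the tested genes, so different highest embryos are common in these libraries. Whether the partners differed more than other genes was not tested. The methyltransferase Nop2 was highest in replicate 2 at 444 CPM, Rrs1 in replicate 2 at 124 CPM, Ebna1bp2 in replicate 4 at 259.9 CPM and Rrp1 in replicate 4 at 166 CPM. Rrp1 was 57.5-fold above its next embryo, and its other counts were 10 or fewer.

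The spread of each gene over the 7 embryos was compared with genes of like abundance. In edgeR's quasi-likelihood dispersion test 0 of the 39 genes passed an adjusted p of 0.05, against a background of 0% of 11810 genes. The lowest adjusted p among the 39 was 0.869. At an unadjusted p under 0.05 the count was 0 of 39, against 0.576% of all genes, and DESeq2 marked 0 dispersion outliers among 11810 genes. SDs of log2 CPM ran from 2.57 (Wdr43) to 5.83 (Nhp2), with a median of 4.31 against 3.63 for all tested genes. Of the 39 genes, 34 had an SD above the median of all genes, which by construction 50% of all genes do. So did 92 of 116 other genes of ribosome assembly (79.3%) and 56 of 77 ribosomal protein genes (72.7%), so this was not particular to the 39. Among genes with a mean of 10 CPM or more, the number was 25 of the 39. It was 22 of 39 without replicates 3 and 6, the 2 shallowest libraries. In simulated libraries with the noise of these embryos the test recovered 0% of 200 genes with 20-fold raised dispersion, so 0 calls say little about any 1 gene.

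**Figure D4:**
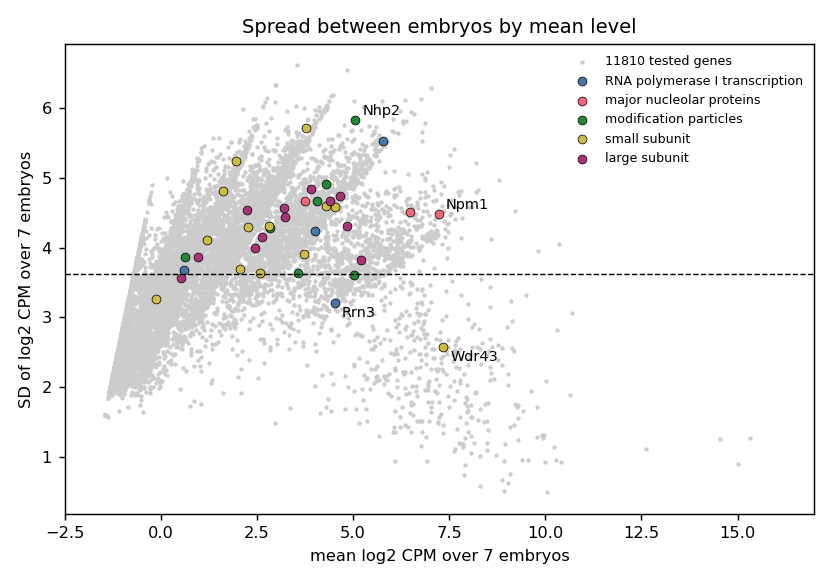
SD of log2 CPM over 7 embryos (vertical axis) against mean log2 CPM (horizontal axis) for 11810 tested genes in grey and the 39 genes coloured by role; the dashed line is the median SD of all genes, 3.63. The 39 points lie mostly above the line, from Wdr43 at 2.57 to Nhp2 at 5.83.

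The cross segregates a mutation of Rpl13a, which was at 86.5, 119, 5.51, 530, 3.26, 7.16 and 23.5 CPM in replicates 1 to 7. These levels rest on 99, 1954, 4, 17558, 9, 1 and 403 counts, and the value in replicate 6 lies below the 21.5 CPM that 3 counts make there. The level was used as a number, since no embryo has a genotype. With edgeR's quasi-likelihood test of the slope on log2 CPM of Rpl13a, 0 of the 39 genes passed an adjusted p of 0.05, against 0% of 11809 genes, and the lowest adjusted p was 0.161 (Tbl3, slope 2.10, n = 7). In simulated libraries with the noise of these embryos the slope test recovered 0% of 200 genes of slope 1. The 0 calls therefore say little about any 1 gene. At an unadjusted p under 0.05 the count was 2 of 39, Tbl3 and Nat10, against 20% of all genes. Slopes were positive for 31 of 39 genes and for 75.9% of all genes, with medians of 0.41 and 0.73. How the share of positive slopes stood beside that of all genes changed with the setting. It was 34 of 39 with limma on the authors' log2 table, where 6315 of 11809 genes had one, and 22 of 37 without replicate 4, where 7639 of 10189 did. Of the best known members, Ncl had a slope of 0.06, Npm1 of 0.41 and Fbl of 0.97, and the 8 negative slopes included Ubtf (-0.38), Las1l (-0.36) and Wdr43 (-0.33). Without replicate 7, Nat10 passed the edgeR test (adjusted p 0.0443, slope 2.42), where 15.3% of 11218 genes did. DESeq2's Wald test called Tbl3 (adjusted p 0.0492, slope 1.69 ± 0.54, SE), where 4% of 10893 genes passed.

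**Figure D5:**
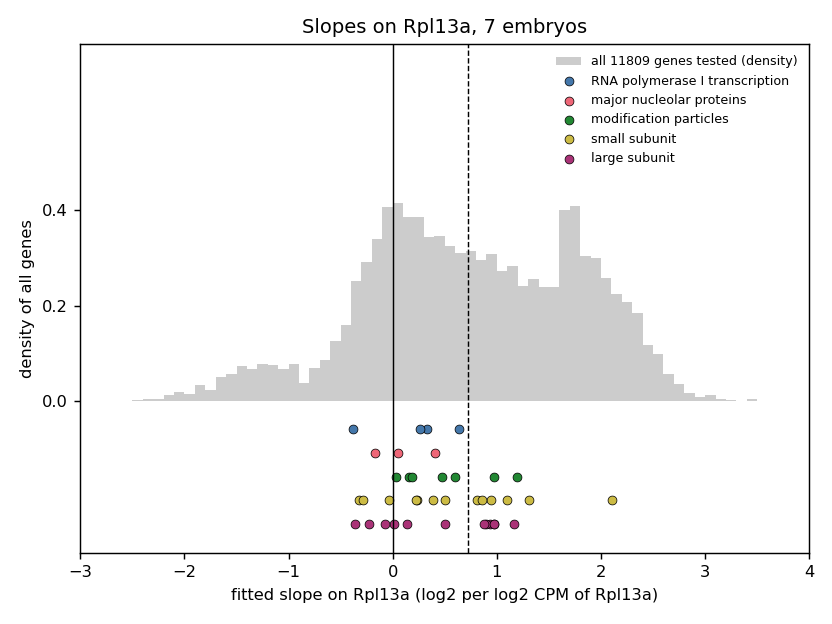
Fitted slope on Rpl13a (horizontal axis, log2 per log2 CPM of Rpl13a) of the 39 genes as points, in rows by role, below the distribution of all 11809 genes tested in grey (vertical axis, density). The dashed line is the median slope of all genes, 0.73; 31 of the 39 points lie right of 0, with Tbl3 farthest at 2.10.

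Other genes of ribosome assembly were likewise all counted in replicate 4, but took their largest shares of the counts in replicates 4 and 5. Of 116 such genes in the table (119 listed), 47, 107, 44, 116, 65, 22 and 95 were counted in replicates 1 to 7. In replicate 5, 56.0% of them were counted, beside 87.2% of the 39 genes and all 78 ribosomal protein genes. The 116 genes are less abundant than the 39, with a median of their mean levels of 47.4 CPM against 92.0 CPM. The 116 took 0.384, 1.49, 0.939, 1.60, 1.60, 1.24 and 0.830% of the counts. None of the 116 passed either edgeR test, with 0 at an unadjusted p under 0.05 for spread (0.576% of all genes) and 18 for slope (20% of all genes). The most abundant by mean CPM in their lists were Eif6, which keeps the large subunit from joining early, Nhp2l1, the shared core protein of box C/D particles, the polymerase I cofactor Taf1d, Rrp7a of the small subunit and Mphosph6 of the exosome. Mphosph6 was at 837, 729, 2320.4, 73.8, 0, 4627 and 1923 CPM, lowest in replicates 4 and 5. Nhp2l1 was at 4.37, 1067, 357, 456, 2957, 0 and 330.4 CPM, highest in replicate 5.

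Ribosomal protein genes, whose products these factors assemble, shared the order of the embryos only in part. The 78 such genes in the table took 0.719, 1.94, 0.756, 6.81, 7.08, 1.41 and 0.622% of the counts in replicates 1 to 7, beside 0.114, 0.702, 1.03, 1.12, 0.697, 0.491 and 0.200% for the 39 biogenesis genes. Replicates 4 and 5 were close in the first and differed in the second. Replicate 3 was second highest for biogenesis genes and among the lowest for ribosomal proteins, of which 39 were counted there. Replicates 1 and 7 were the lowest in both sets, and replicate 4 was among the highest in both. The difference in order was not tested.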

How the data were processed

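Polyadenylated RNA of 7 single embryos was made into cDNA with SMART-Seq v4 and Nextera XT, per the labels' protocols. The authors deposited raw counts per gene symbol, made with HISAT2 2.0.5, featureCounts 1.5.0-p2 of Subread, limma and build GRCm38, per the submitters' processing notes; these sources name no annotation, settings or use of strand. The authors' deposited log2 table was recomputed as voom log2 CPM with quantile normalization (largest difference 4.97e-14) and served as an alternative only.

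CPM are counts over the library total. Tests covered the 11810 genes whose mean CPM reached 1, with TMM scaling (edgeR 4.0.16, R 4.3.3). A prior count of 2 entered log2 CPM. The spread test was a one-sided F test of each gene's quasi-likelihood dispersion. The slope test was glmQLFTest. Both were adjusted over all genes by the Benjamini-Hochberg method at 0.05. On simulated data with a dispersion of 0.1 the spread test recovered 99% of 200 genes with 20-fold raised dispersion among 11571 genes (13 false calls) and the slope test 99.5% of 200 genes of slope 1 among 11471 (8 false calls). At the real dispersion both recovered 0% of 200, among 9867 and 9951 genes. DESeq2 1.42.0 and limma 3.58.1 gave alternatives. Positions are from GENCODE M21 (GRCm38). Near-identical transcripts were sought with blastn 2.17.0, at 95% identity over 300 bases.

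The 39 genes, the other lists and the tests were chosen with earlier results of these data known. Values in every embryo are given for the 4 genes of highest mean CPM in each role, those counted in all 7 or at most 3 embryos and those past a test. The other genes are given by range or by their highest level. Of the other assembly genes, the 1 of highest mean CPM in each of 5 lists is named. Fbl, Nop56, Nob1, Utp20, the PeBoW genes and Rrp1 were singled out for single values after these were seen.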

Additional observations from a re-analysis of the deposited data

How the results depend on the processing

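The count of 0 genes past the spread test was unchanged in all 16 alternatives run: DESeq2 size factors, library totals, ribosomal RNA and Lars2 left out, no filter, mean CPM of 10 or more, each gene's own prior, DESeq2, limma on the authors' table, each embryo left out, and replicates 3 and 6 left out. The slope test gave 0 in 13 of 15 alternatives and 1 with DESeq2 (Tbl3) and 1 without replicate 7 (Nat10), so the range over left-out embryos was 0 to 1; the cause was not tested. The number of genes with an SD above the median of all genes was 22 without replicates 3 and 6 and from 25 to 37 in the other 15 alternatives, against 34. Left-out single embryos gave 26 to 35 (27 of 37 without replicate 4). Positive slopes, a count added after seeing the data, numbered from 22 (of 37, without replicate 4) to 34. Genes counted in replicate 1 fell from 20 to 13 after thinning, and in replicate 6 from 5 to 3 with a minimum of 3 counts, by construction of these settings. The mean share of counts, 0.622%, was 0.709% with ribosomal RNA and Lars2 out of the total and 0.556% without Ncl, within 1 SD. No paired analysis was possible because the embryos form 1 group. Depth limits replicate 6 most, where 3 counts equal 21.5 CPM.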

Other observations

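The loci of 6 of the 39 genes (Ncl, Nop56, Nop58, Dkc1, Wdr43 and Gnl3) hold 19 annotated small nucleolar RNA genes, of which 10 are in the count table. Such RNAs guide the modification of ribosomal RNA, and their hosts are transcribed with them. Counts were seen for 2 of the 10, Snord57 in Nop56 with 80 and Snord53 in Wdr43 with 19, both in replicate 4 and at 0 in the other 6 embryos. The remaining 8 had no count in any embryo. Replicate 4 is the deepest library, and the libraries were primed on poly(A), so these counts need not follow the amount of small nucleolar RNA. Whether they are reads of the host transcripts was not tested.

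Among the 39 genes, 6 had a transcript of another gene at 95% identity or more over at least 300 bases: Npm1, Nop56, Pes1, Wdr12, Fbl and Ddx21. The matches number 4 for Npm1, 3 for Nop56, 2 each for Pes1 and Wdr12 and 1 each for Fbl and Ddx21. Of them, 1 is in the count table, Vmn1r88 for Wdr12. The labels do not say how reads with more than 1 match were counted.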
